A study of Homo sapiens with 6 samples.

Results

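Chemokines and cytokines are secreted proteins by which cells attract leukocytes and instruct their growth and differentiation, and 10 of their genes are described here in cells treated with the ferroptosis inducer RSL3: CCL2, CXCL8, CXCL1, CXCL2, IL23A, IL6, LIF, IL11, IL1B and CSF1. They were picked by name from 65988 gene identifiers, with the RSL3 response of CCL2 and IL23A already known from these same libraries, and all 10 were among the 16105 genes with enough reads to be tested. The difference between the groups was therefore known when the genes were picked, so their values are given as a description, with fold changes and standard errors (SE) but no p-value.

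The cells were U87MG, an established human glioblastoma line of WT genotype, treated with vehicle (control, n = 3 libraries) or with 2 µM RSL3 (n = 3 libraries), a small molecule that inhibits GPX4, the selenoenzyme that detoxifies lipid peroxides. The labels give no exposure time, and a legend in the study gives about a day. RNA was sequenced on an Illumina instrument and counted per gene, with 27813462 to 43306335 counts per library. Nothing in the labels says that the libraries came from separate cultures, so p-values measure the spread between these libraries, which may be technical, and the results concern 1 cell line.

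CXCL8, CXCL1 and CXCL2 are CXC chemokines that draw neutrophils through the receptors CXCR1 and CXCR2, whereas CCL2 draws monocytes through CCR2. IL6, LIF and IL11 signal through the shared receptor chain gp130 (IL6ST) to JAK kinases and STAT3, IL23A is a subunit of the heterodimer IL-23, IL1B is a pro-inflammatory cytokine cut to its active form by caspase-1, and CSF1 sustains macrophages. Many of these genes are textbook targets of the transcription factors NF-kB and AP-1, and many of their mRNAs are kept short-lived by AU-rich elements, repeats of the pentamer AUUUA in the 3′ untranslated region (UTR) bound by proteins such as tristetraprolin (ZFP36).

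The labelled cell type was checked first. In normalized counts (read counts scaled to a common library size), VIM, CD44 and CHI3L1, genes of mesenchymal glioma lines, averaged 68288, 24691 and 6094 in control cells and were lower after RSL3 (log2 fold changes −0.29, −0.39 and −0.56, each with an edgeR adjusted p under 0.05), whereas NES (153 in control and 182 in RSL3 cells, log2 fold change 0.25, edgeR adjusted p = 0.203) and GFAP (104 and 138, 0.40, edgeR adjusted p = 0.0726, groups not overlapping) lay on the other side of their control levels without passing the test, and S100B had at most 1 read in any library. The summed level of those 6 markers was 98328 to 99916 in control and 77587 to 81624 in RSL3 libraries, and whether it bears on the chemokine values was not tested. The leukocyte markers PTPRC, TYROBP, CD3E and AIF1 were at or near 0, and ITGAM and CD79A had at most 4 reads in any library. CD14 had no reads in control and 1, 3 and 6 in RSL3 libraries, too few to be tested. CD163 was at 12.6 and 8.65 normalized counts in control and RSL3 cells. The sum of 9 leukocyte markers, most of it CSF1R, was 108 to 130 in control and 81.0 to 120 in RSL3 libraries. Of 5 endothelial markers only VWF was above trace level, and it was lower after RSL3 (76.9 against 30.2, log2 fold change −1.33, edgeR adjusted p = 0.00111), with the 5 summing to 70.7–104 in control and 33.2–55.9 in RSL3 libraries. In these bulk samples, fewer cells making a transcript and less of it in each cell cannot be told apart.

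Before the values, the stretch upstream of the transcription start is shown for 6 genes, to set those with a match to a kappaB-like motif beside those without. RefSeq (GRCh38.p14) gave promoter sequence for 7 of the 10 genes; CCL2, LIF and CSF1 had no entry. Each line holds the 250 bases before the annotated start, 5′ to 3′ on the gene's strand, with capitals for a match on either strand to the kappaB-like motif GGNNNTTCC or to the AP-1 motif TGANTCA. CXCL8 lies at chr4:73740319-73740568 (plus strand), CXCL1 at chr4:73869143-73869392 (plus), CXCL2 at chr4:74099196-74099445 (minus), IL6 at chr7:22726950-22727199 (plus), IL23A at chr12:56338634-56338883 (plus) and IL11 at chr19:55370464-55370713 (minus).
CXCL8: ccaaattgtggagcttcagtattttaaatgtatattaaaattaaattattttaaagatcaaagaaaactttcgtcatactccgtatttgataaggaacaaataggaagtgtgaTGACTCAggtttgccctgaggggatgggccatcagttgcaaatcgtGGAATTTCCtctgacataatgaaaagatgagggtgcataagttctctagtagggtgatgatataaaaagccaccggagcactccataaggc
CXCL1: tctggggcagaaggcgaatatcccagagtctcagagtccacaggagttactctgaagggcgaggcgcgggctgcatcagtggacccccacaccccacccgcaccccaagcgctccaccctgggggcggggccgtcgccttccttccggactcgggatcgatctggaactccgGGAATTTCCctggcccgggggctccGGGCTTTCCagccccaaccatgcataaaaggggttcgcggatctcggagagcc
CXCL2: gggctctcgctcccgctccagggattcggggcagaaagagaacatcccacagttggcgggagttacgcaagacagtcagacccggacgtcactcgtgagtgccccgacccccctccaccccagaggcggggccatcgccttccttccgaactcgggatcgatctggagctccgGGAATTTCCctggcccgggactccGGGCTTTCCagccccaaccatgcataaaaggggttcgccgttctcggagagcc
IL6: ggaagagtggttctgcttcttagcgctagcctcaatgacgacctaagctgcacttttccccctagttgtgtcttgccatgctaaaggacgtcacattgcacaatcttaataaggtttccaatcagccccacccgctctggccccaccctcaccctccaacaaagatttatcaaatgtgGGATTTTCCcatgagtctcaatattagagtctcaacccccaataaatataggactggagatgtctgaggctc
IL23A: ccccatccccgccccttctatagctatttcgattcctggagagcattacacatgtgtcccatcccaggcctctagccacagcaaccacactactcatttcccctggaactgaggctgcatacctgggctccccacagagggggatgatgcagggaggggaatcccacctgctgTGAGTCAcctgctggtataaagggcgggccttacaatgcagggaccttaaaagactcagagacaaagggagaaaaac
IL11: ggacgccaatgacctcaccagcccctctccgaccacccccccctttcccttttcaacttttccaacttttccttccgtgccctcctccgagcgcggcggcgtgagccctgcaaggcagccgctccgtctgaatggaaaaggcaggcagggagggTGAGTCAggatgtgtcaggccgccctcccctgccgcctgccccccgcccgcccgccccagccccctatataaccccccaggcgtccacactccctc

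The kappaB-like motif was present in CXCL8 (91 to 83 bases before the start), CXCL1 (78 to 70 and 53 to 45), CXCL2 (77 to 69 and 53 to 45) and IL6 (72 to 64), that is in 4 of 7 genes against 17.1% of 35116 RefSeq promoter windows of that length. CXCL1 and CXCL2, which arose by duplication, carried the same 9 letters at both places, and the site farther from the start in each read GGAATTTCC, as did the site in CXCL8. The AP-1 motif was present in CXCL8 (137 to 131), IL23A (77 to 71) and IL11 (96 to 90), 3 of 7 genes against 6.57% of windows. The antioxidant response element TGACNNNGC, bound by NRF2, was in none of the 7 and in 10.9% of windows, and IL1B held none of the 3 motifs in its 250 bases. Other forms of the kappaB site were not searched, so a gene without a match may still hold one. The IL23A stretch, for example, holds ggggaatccc, which GGNNNTTCC does not match. Matches of letters are a description of the sequence, not of binding.

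**Figure D1:**
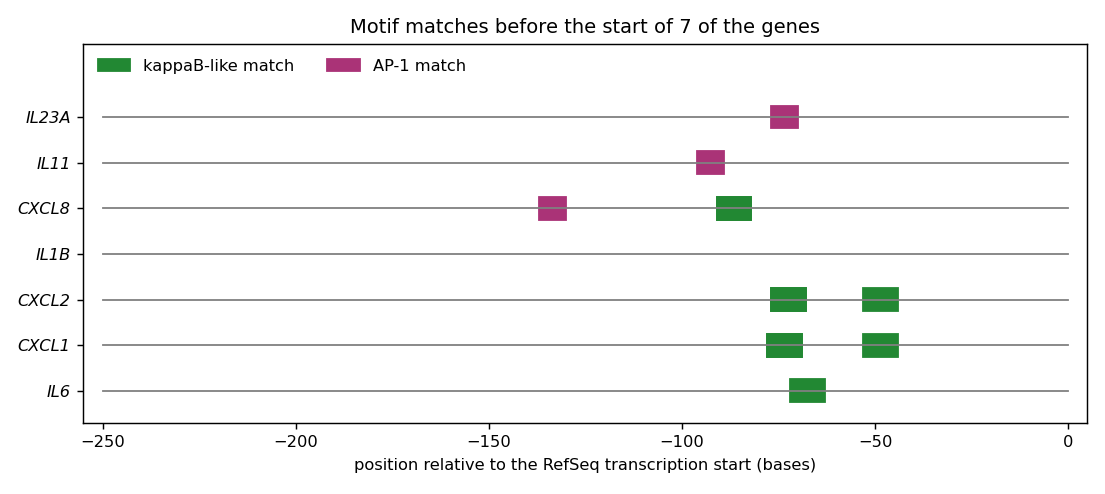
Positions of kappaB-like (green) and AP-1 (purple) motif matches in the 250 bases before the RefSeq start of 7 genes; the horizontal axis is the position in bases relative to the start. By the motifs GGNNNTTCC and TGANTCA alone, IL23A and IL11 hold an AP-1 match only, CXCL1, CXCL2 and IL6 kappaB-like matches only, CXCL8 both and IL1B neither. The 5 genes called higher after RSL3 (IL23A, IL11, IL1B, CXCL8 and CXCL2) fall in all 4 of these classes, and CXCL1 and IL6 were not called. The genes were picked with this contrast known, and no relation between motif and response was tested. Other forms of the kappaB site were not searched.

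Among the chemokine ligands, CCL2 and CXCL8 lay on opposite sides. CCL2 (ENSG00000108691, chromosome 17, 34255274 to 34257208, plus strand, GRCh38) had normalized counts of 161, 154 and 160 in control libraries and 43.7, 49.8 and 51.9 in RSL3 libraries. Every RSL3 library was thus far under every control library, on raw counts of 125 to 205 in control and 38 to 52 in RSL3 cells. The log2 fold change was −1.70 (SE 0.17), a level 3.25-fold lower, which placed CCL2 at rank 40 of the 16105 genes by absolute log2 fold change.

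CXCL8 (ENSG00000169429, chromosome 4, 73740519 to 73743716, plus strand), the neutrophil attractant also called interleukin 8, was the most abundant of the 10 in every library. It had 25501, 25362 and 27500 normalized counts in control libraries and 35346, 36941 and 38041 in RSL3 libraries. The groups were well apart, with a mean of 26121 ± 1196 (SD, n = 3) against 36776 ± 1355 (SD, n = 3) and a log2 fold change of 0.49 (SE 0.03), or 1.41-fold. In normalized counts per exon kilobase, this was the largest difference between group means among the 10 genes.

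CXCL2 (ENSG00000081041, chromosome 4, 74097040 to 74099196, minus strand), another neutrophil attractant, had 8288, 8033 and 9666 normalized counts in control libraries and 10565, 10229 and 10931 in RSL3 libraries. The lowest RSL3 library was only a little above the highest control library, and the log2 fold change was 0.29 (SE 0.05). CXCL1 (ENSG00000163739, chromosome 4, 73869393 to 73871308, plus strand), which lies between CXCL8 and CXCL2 and uses the same receptor, had 236, 253 and 228 in control libraries and 238, 241 and 237 in RSL3 libraries. The CXCL1 groups overlapped fully, with a log2 fold change of −0.00 (SE 0.11). Since these paralogs can share reads, every 75-base word of their transcripts was compared: 26 of 1041 words of CXCL2 (2.5%) and 3 of 1100 words of CXCL1 (0.273%) also occurred in another of CXCL1, CXCL2 and CXCL3, so reads in those stretches are of uncertain origin.

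Ratios of raw counts taken within a library do not depend on library size. The CXCL8 to CXCL1 ratio was 110 ± 10.3 in control and 154 ± 6.16 in RSL3 libraries (SD, n = 3 each), and the CXCL2 to CXCL1 ratio was 36.4 ± 5.43 and 44.4 ± 1.87. The first ratio separated the groups clearly, whereas the CXCL2 to CXCL1 ratio of 42.3 in the third control library came next to the lowest RSL3 value of 42.5. Of these 3 neighbouring genes CXCL8 had the largest fold change and CXCL1 the smallest.

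IL23A (ENSG00000110944, chromosome 12, 56334174 to 56340410, plus strand) encodes the subunit that is particular to IL-23, a cytokine that maintains IL-17-producing T cells. It had 36.9, 59.0 and 58.2 normalized counts in control libraries and 146, 142 and 162 in RSL3 libraries. Every RSL3 library was more than double the highest control library, and the spread in the controls came from the lower first library. The mean was 51.4 ± 12.5 against 150.0 ± 10.3 (SD, n = 3 each), with a log2 fold change of 1.57 (SE 0.19) and rank 55 by absolute log2 fold change. The transcript of the IL-23 partner subunit, IL12B, was not found at a level that this depth can tell from 0, with 2 reads in 1 control library and none in the other 5. CCL2 and IL23A also exchanged their order: the ratio of IL23A to CCL2 counts was 0.229, 0.384 and 0.364 in control and 3.34, 2.85 and 3.12 in RSL3 libraries.

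**Figure D2:**
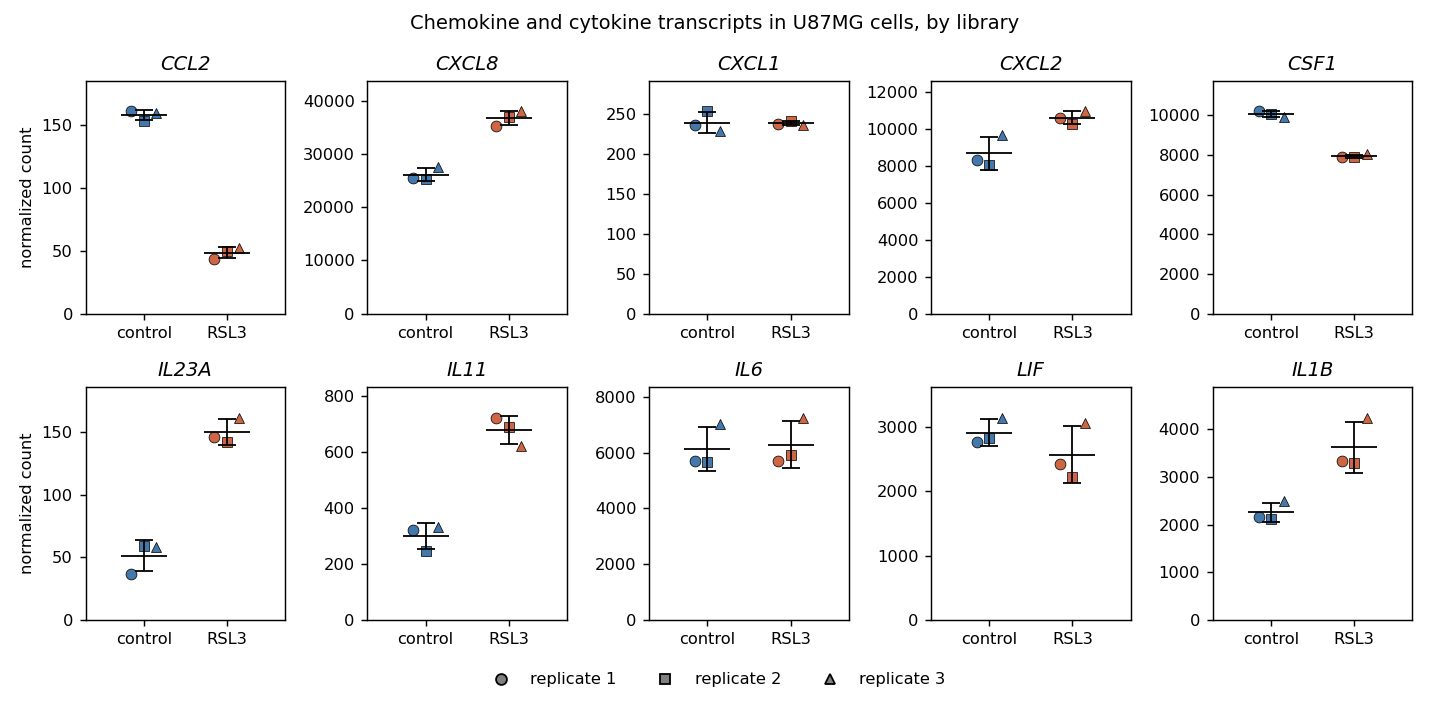
Normalized counts of the 10 genes in each library (points; control in blue, RSL3 in orange), with the group mean (long line) and SD (bars); circles, squares and triangles are replicates 1, 2 and 3. CCL2 and CSF1 lie lower in all 3 RSL3 libraries, CXCL8, CXCL2, IL23A, IL11 and IL1B lie higher, and the groups overlap for CXCL1, IL6 and LIF.

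The 3 cytokines that signal through gp130 differed from each other. IL11 (ENSG00000095752, chromosome 19, 55364382 to 55370463, minus strand), known for roles in fibrosis and bone, had 322, 246 and 332 normalized counts in control libraries and 724, 691 and 624 in RSL3 libraries. The RSL3 libraries were all well above the controls, with means of 300 ± 47.0 and 680 ± 51.0 (SD, n = 3 each) and a log2 fold change of 1.16 (SE 0.10), or 2.24-fold.

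IL6 (ENSG00000136244, chromosome 7, 22725884 to 22732002, plus strand), the principal inducer of the acute phase response, had normalized counts of 5703, 5663 and 7024 in control and 5679, 5910 and 7257 in RSL3 libraries. The groups overlapped throughout, the third library was the highest of each, and the log2 fold change was 0.04 (SE 0.07). LIF (ENSG00000128342, chromosome 22, 30240453 to 30246759, minus strand), which keeps stem cells undifferentiated, had 2765, 2832 and 3149 in control and 2429, 2216 and 3064 in RSL3 libraries. Only the third RSL3 library reached the control range, and the log2 fold change was −0.18 (SE 0.08). The exons of IL6 and LIF share 9.91% and 4.37% of their bases with other annotated genes, antisense transcripts among them, and counting ignored strand. Reads in those stretches may have been left uncounted as ambiguous, or may belong to those genes if the annotation used for counting differed. The ratio of IL11 to LIF counts was 0.103 ± 0.0150 in control and 0.271 ± 0.0588 in RSL3 libraries (SD, n = 3 each), every RSL3 value lying above every control value.

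IL1B (ENSG00000125538, chromosome 2, 112829751 to 112836816, minus strand) had 2160, 2119 and 2493 normalized counts in control libraries and 3325, 3288 and 4249 in RSL3 libraries. All 3 RSL3 libraries were above the controls and the third was highest by a wide margin, so that the SD was 544 around a mean of 3621, against 2257 ± 205 in control cells (n = 3 each). The log2 fold change was 0.68 (SE 0.07), or 1.60-fold. CSF1 (ENSG00000184371, chromosome 1, 109910242 to 109930992, plus strand) had 10189, 10069 and 9903 in control libraries and 7884, 7877 and 8027 in RSL3 libraries. Replicates were tight, with SDs of 143 and 84.8, and CSF1 was lower in every RSL3 library, with a log2 fold change of −0.34 (SE 0.03).

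Side by side, 5 of the 10 genes were higher and 2 lower at an adjusted p under 0.05, where 12.9% and 12.7% of all 16105 genes tested were higher and lower, 25.6% in either direction. The 2 groups of libraries did not overlap for those 7 genes, and did not for 38.6% of all genes tested. A log2 fold change of at least 0.5 in size was seen for CCL2, IL23A, IL11 and IL1B, against 10.8% of all genes. As the genes were picked with this contrast known, nothing is read from these shares. The median log2 fold change of the 10 was 0.16, with 6 above 0 and 4 below, and that of all genes tested was −0.0044.

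**Figure D3:**
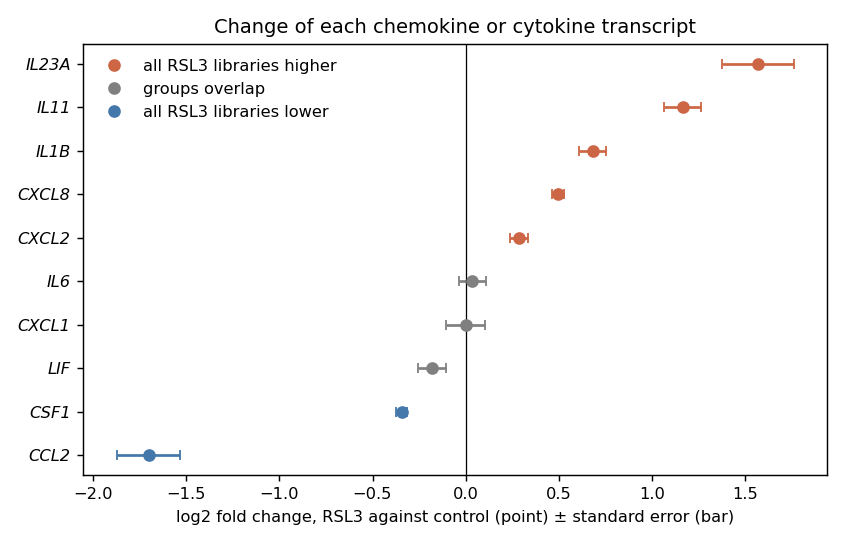
Log2 fold change of RSL3 against control for the 10 genes, with bars of 1 SE (edgeR, n = 3 libraries per group). Values run from −1.70 for CCL2 to 1.57 for IL23A, and the least abundant genes have the widest bars.

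Abundance was compared between genes per kilobase of exon. In control cells the order, in normalized counts per exon kilobase, was CXCL8 (10093 ± 462), CXCL2 (6196 ± 628), CSF1 (1919 ± 27.4), IL6 (1419 ± 179), LIF (753 ± 52.9), IL1B (750 ± 68.2), CXCL1 (176 ± 9.46), IL11 (112 ± 17.5), CCL2 (81.8 ± 2.03) and IL23A (43.6 ± 10.6), each with SD over n = 3 libraries. LIF and IL1B could not be ordered, since their libraries overlapped, while the libraries of all other neighbours were separate. After RSL3 the top was again CXCL8 (14210 ± 524) and CXCL2 (7564 ± 251), then CSF1 (1514 ± 16.2), IL6 (1454 ± 197) and IL1B (1203 ± 181), whose neighbouring values overlapped. LIF (664 ± 114), IL11 (254 ± 19.0), CXCL1 (175 ± 1.62), IL23A (127 ± 8.77) and CCL2 (25.1 ± 2.21) followed. CCL2 thus went from ninth to last place and IL11 passed CXCL1.

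The 10 genes together took 0.160% to 0.179% of a control library's counts and 0.194% to 0.213% of an RSL3 library's, with no overlap. CXCL8 alone supplied 45.4% to 46.3% of those reads in control and 52.4% to 54.7% in RSL3 libraries. With CXCL2, IL6 and CSF1 it made up 88.5% to 90.2% in all 6 libraries, so the sum says little of CCL2 or IL23A.

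The 2 chemokine gene clusters were next read across their neighbours. Of 13 CXC genes of the chromosome 4 cluster, 5 were tested and CXCL8, CXCL2 and CXCL5 were higher, beside 12.9% of all genes tested. CXCL8 and CXCL2 are among the 10 genes picked with this contrast known, so nothing is read from this count for the cluster. CXCL5, a neutrophil attractant, had 273, 272 and 312 normalized counts in control and 452, 405 and 448 in RSL3 libraries, groups well apart (log2 fold change 0.60, edgeR adjusted p = 4.87e-05), though 17.3% of its exon bases are shared with another annotated gene. CXCL3 had 1746, 1491 and 1889 in control and 1833, 1859 and 1996 in RSL3 libraries, which overlapped (0.14, edgeR adjusted p = 0.0894). CXCL6 had 1 read in all 6 libraries, and the interferon-induced CXCL10 1 and CXCL11 at most 4 in any library, while CXCL9, CXCL13, PF4, PF4V1 and PPBP had none. In the chromosome 17 cluster CCL2 was the only one of 6 genes tested, CCL7 and CCL13 having 1 read each and CCL1, CCL8 and CCL11 none, all under the floor of 3 counts below which a gene is not told from 0.

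Beyond the 10, a list of 39 further chemokines and cytokines held 23 tested genes, of which 3 were higher and 1 lower (median log2 fold change −0.0026), beside 12.9% and 12.7% of all genes tested. Besides CXCL5, CTF1, a gp130 cytokine known as cardiotrophin, went from 341 ± 14.5 to 456 ± 32.5 normalized counts (SD, n = 3 each; log2 fold change 0.42, edgeR adjusted p = 0.00108). IL1A, which shares its receptor with IL1B, went from 1960 ± 100.2 to 2160 ± 113 (0.14, edgeR adjusted p = 0.0300), a call lost when control replicate 1 or 3 or RSL3 replicate 1 or 2 was left out, with log2 fold changes of 0.10 to 0.15. TNFSF12, the TNF relative TWEAK, was lower at 62.3 against 35.3 (−0.84, edgeR adjusted p = 0.0388), with 13.7% of its exon bases shared with another gene, and this call was lost under DESeq2 and without control replicate 1 (−0.70), control replicate 3 (−0.77) or RSL3 replicate 2 (−0.53). The count of 4 called genes was 2 without control replicate 1 and 2 without RSL3 replicate 2. The granulocyte factor CSF3 was abundant at 7751 ± 662 and 8111 ± 1208 and overlapped (0.07, edgeR adjusted p = 0.546). CCL5, CCL8, TNF and MIF were listed at 0 in all libraries, a value that for MIF, a gene most cells use, may come from the counting. Other annotated genes share 94.1% of the MIF exon bases.

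**Figure D4:**
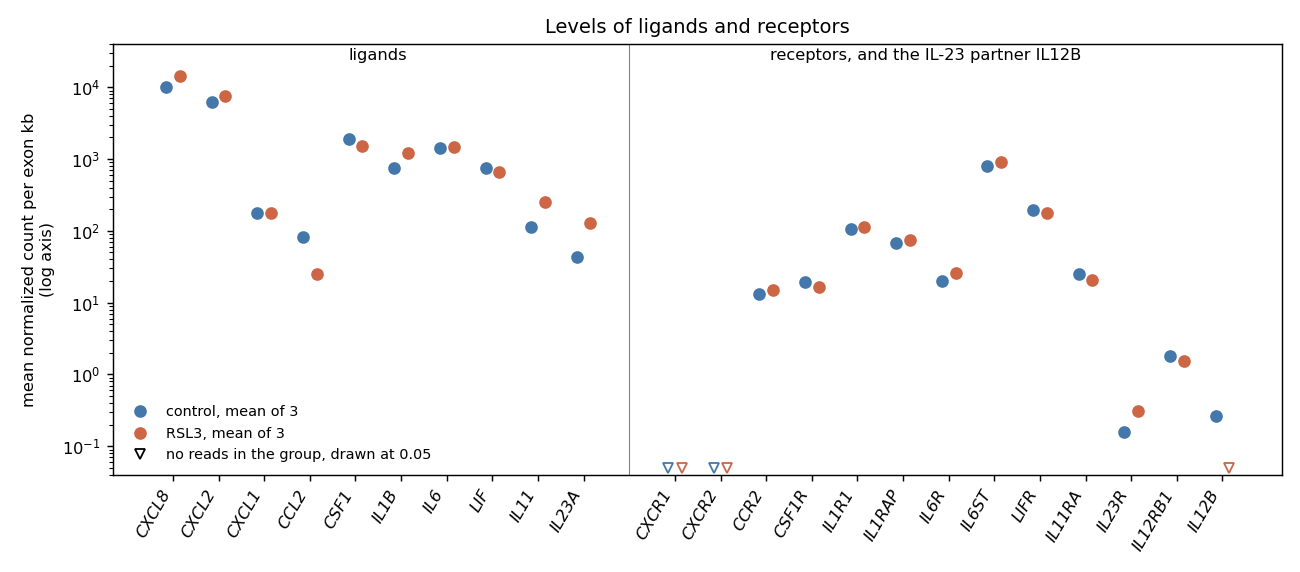
Mean normalized counts per exon kilobase (log axis) of the 10 ligands and of receptors and the IL-23 partner subunit, for control (blue) and RSL3 (orange), n = 3 libraries each; open triangles mark genes with no reads in a group. CXCR1 and CXCR2 had no reads in any library, whereas the gp130 gene IL6ST stood at 811 in control cells.

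Receptor transcripts were uneven. CXCR1 and CXCR2, the receptors of CXCL8, CXCL1 and CXCL2, had no reads in any of the 6 libraries, which each allow up to 3 counts. The IL-23 receptor chains were also scarce, with 0 to 2 reads of IL23R and 3 to 10 of IL12RB1 per library. CCR2, the CCL2 receptor, had 49.5, 76.3 and 28.6 normalized counts in control and 50.6, 70.6 and 52.9 in RSL3 libraries, which overlapped (log2 fold change 0.21, edgeR adjusted p = 0.665). CSF1R had 101 ± 9.77 and 83.9 ± 16.4 (SD, n = 3 each; −0.27, edgeR adjusted p = 0.312).

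Among the receptors of the gp130 cytokines, the shared chain IL6ST stood at 811 normalized counts per exon kilobase in control cells, against 19.9 for IL6R and 24.8 for IL11RA, the chains particular to IL6 and IL11. IL6ST had 9628, 9843 and 9888 normalized counts in control and 11042, 11060 and 11080 in RSL3 libraries (log2 fold change 0.18, edgeR adjusted p = 7.75e-05). Exons of other genes overlap 6.61% of the IL6ST exon bases and 5.17% of those of LIFR. LIFR and OSMR, the chains that join gp130 for LIF and oncostatin M, were lower (log2 fold changes −0.16 and −0.14, edgeR adjusted p = 0.00622 and 0.00448). IL6R had 140, 137 and 140 normalized counts in control and 193, 163 and 179 in RSL3 libraries, without overlap but also without passing the test (0.36, edgeR adjusted p = 0.0506), and IL11RA, 32.8% of whose exon bases are shared with other genes, had a log2 fold change of −0.25 (edgeR adjusted p = 0.275). The IL1B receptor chains IL1R1 (means of 754 and 817 normalized counts) and IL1RAP (769 and 825) had log2 fold changes of 0.12 and 0.11 that missed the threshold (edgeR adjusted p = 0.180 and 0.228). In all, 1 of 12 tested genes of the 20 listed receptors and antagonists was higher and 2 were lower, with a median log2 fold change of 0.10, beside 12.9% and 12.7% of all genes tested. IL1RN, the natural antagonist of IL1B, had 449 and 391 normalized counts (−0.20, edgeR adjusted p = 0.117), and the ratio of IL1RN to IL1B counts was 0.199 ± 0.0045 in control and 0.109 ± 0.0124 in RSL3 libraries (SD, n = 3 each).

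Of 27 tested NF-kB pathway genes, 5 were higher and 6 lower (median log2 fold change 0.016), where 12.9% and 12.7% of all genes tested were, and the 11 calls became 7 without RSL3 replicate 2. By role, 1 of 5 subunits was higher, and of 7 genes of the IkB family and other regulators listed as inhibitors 3 were higher and 1 lower. The 3 were NFKBIB, NFKBIE and NFKBIZ, the last also an activator of some genes, with the call of NFKBIE lost without RSL3 replicate 2. Of 10 kinases or adaptors 2 were lower, IKBKB (−0.13) and MYD88 (−0.16). Their calls were lost in 4 and 3 of 13 alternatives, both with DESeq2 and 1 surrogate variable. Of 5 tested targets 1 was higher and 3 lower. Among the lower targets, VCAM1 had only 13 to 18 reads in control and 5 in each RSL3 library. Its call was lost in 6 of the 10 alternatives that tested it. RELB, the subunit of the alternative pathway, was at 1946 ± 18.3 and 2404 ± 53.5 (SD, n = 3 each; log2 fold change 0.30, edgeR adjusted p = 4.22e-06). NFKBIZ, a nuclear cofactor needed for some secondary response genes such as IL6, went from 6491 ± 994 to 9076 ± 734 (0.48, edgeR adjusted p = 1.90e-05), and the inhibitor NFKBIB rose by 0.38 on the log2 scale (edgeR adjusted p = 9.06e-06). In the other direction, TNFAIP3, the feedback deubiquitinase A20, was at 1375, 1413 and 1400 in control and 926, 1013 and 1178 in RSL3 libraries (−0.42, edgeR adjusted p = 4.22e-05). BIRC3, an apoptosis inhibitor and NF-kB target, had 180, 184 and 224 in control and 106, 119 and 97.8 in RSL3 libraries (−0.86, edgeR adjusted p = 0.000109), whereas ICAM1, an adhesion molecule and target, was higher (0.42, edgeR adjusted p = 3.37e-06), with 25.4% of its exon bases shared with other genes. NF-kB targets outside the 10 genes thus moved both ways, as did CXCL8 and CCL2.

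**Figure D5:**
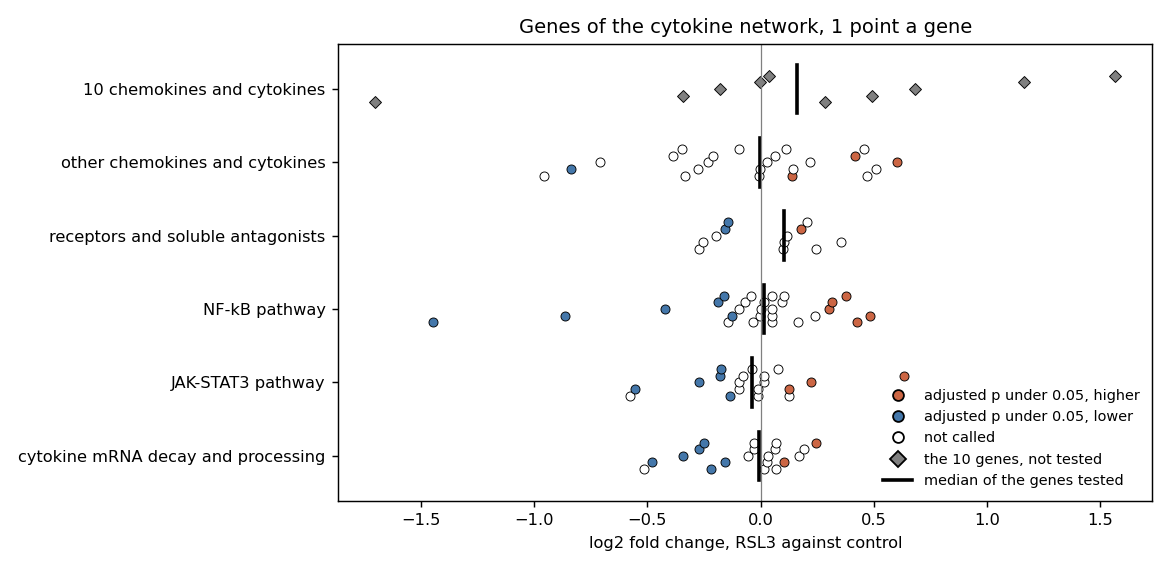
Log2 fold change of RSL3 against control for the 10 genes (grey diamonds, chosen with this contrast known) and for the tested genes of 5 further lists (circles; orange higher and blue lower at an edgeR adjusted p under 0.05, white not called), with each list's median as a bar. The list medians lie between −0.04 and 0.16, and CCL2, IL23A and IL11 lie farther out than most genes of any list.

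Among 19 genes of the JAK-STAT3 route used by IL6, LIF and IL11, 3 were higher and 5 lower (median log2 fold change −0.039), beside 12.9% and 12.7% of all genes tested. The kinases JAK1 (−0.17, edgeR adjusted p = 0.000158) and JAK2 (−0.18, edgeR adjusted p = 0.00440) were lower. SOCS3, a feedback inhibitor induced by gp130 signalling, was at 732, 731 and 896 normalized counts in control and 584, 522 and 504 in RSL3 libraries, without overlap (−0.55, edgeR adjusted p = 3.81e-05). SOCS1, also listed as a feedback gene, was higher, at means of 46.6 and 72.8 (0.63, edgeR adjusted p = 0.0415). Its call was lost in 8 of 13 alternatives, and that of STAT3 (−0.13, edgeR adjusted p = 0.0268) in 7. The 8 calls of this list became 6 with DESeq2. CEBPB, a factor that binds cytokine promoters, and the kinase gene PIM3 were higher (0.13 and 0.22, edgeR adjusted p = 0.00219 and 2.69e-05). All these changes were smaller than that of IL11.

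The 3′ UTRs of the 10 genes differed in their content of the ATTTA pentamer, counted in the GENCODE canonical transcript. A 30-base window with the most pentamers, in capitals and 5′ to 3′ on the transcript's strand, is given for CXCL2 and IL23A as pentamer-rich cases, for CXCL8 as the most abundant mRNA, and for CCL2 as the one that was lowest after RSL3.
CXCL2: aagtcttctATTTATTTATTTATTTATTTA
IL23A: cagtttggggaggattATTTAttgtATTTA
CXCL8: taacctATTTAttATTTAtgtATTTATTTA
CCL2: tatgccttaagtaatgttaattcttATTTA

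Pentamers per kilobase of 3′ UTR numbered 14.1 in IL6, 14.0 in CXCL2, 13.1 in IL23A, 9.84 in IL1B, 7.77 in CXCL1, 7.19 in CXCL8 and 5.54 in IL11, all above the 90th percentile of 4.87 over 12468 tested genes. CCL2 (2.66), LIF (2.19) and CSF1 (1.86) were near the median of 1.79, and CCL2 held a single pentamer in 376 bases. The 3 genes near the median, CCL2, LIF and CSF1, had log2 fold changes of −1.70, −0.18 and −0.34, and the 7 above the 90th percentile had values from −0.00 to 1.57. With 10 genes chosen on their response, this is a description and no relation was tested.

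Transcripts of proteins that bind such elements, or that take part in cytokine mRNA decay in other ways, also changed in both directions. Of 20 genes of cytokine mRNA decay and processing, 2 were higher and 6 lower (median log2 fold change −0.0062), beside 12.9% and 12.7% of all genes tested. Of 7 AU-rich element binding genes 1 was higher and 2 lower, and of 7 endonuclease or deadenylase genes 1 was higher and 1 lower. The other 3 lower genes belong to IL1B processing, described below. ZFP36 itself was not called (0.17, edgeR adjusted p = 0.116), nor were ELAVL1, HNRNPD and TIA1. ZFP36L1 and ZFP36L2, which recruit deadenylases to AU-rich mRNAs, were lower (−0.34 and −0.27, edgeR adjusted p = 1.22e-06 and 1.47e-05), with 7.92% and 22.4% of their exon bases shared with other genes. ZC3H12A, the endonuclease Regnase-1 that cuts IL6 mRNA, was at 1448 ± 109 and 1247 ± 59.4 (SD, n = 3 each; −0.22, edgeR adjusted p = 0.00606), a call lost without control replicate 3 (−0.15). KHSRP, a decay factor for AU-rich mRNAs, was higher (0.24, edgeR adjusted p = 5.57e-06).

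On the side of IL1B processing, 3 of 6 genes were lower and none higher, where 12.7% of all genes tested were lower and 12.9% higher. Of the other 3, none passed the test. The inflammasome sensor gene NLRP3 (276 and 316 normalized counts, log2 fold change 0.19) did not overlap between groups. The adaptor gene PYCARD had a log2 fold change of 0.07, and GSDMD had −0.52 on 80 reads in total. Other genes share 66% of the exon bases of NLRP3 and 59.7% of those of PYCARD. CASP1, whose product cleaves pro-IL1B, had 706, 652 and 648 normalized counts in control and 539, 397 and 505 in RSL3 libraries, without overlap (log2 fold change −0.48, edgeR adjusted p = 0.000428). GSDME, a pore-forming gasdermin, was at 10455 ± 26.4 and 8796 ± 213 (SD, n = 3 each; −0.25, edgeR adjusted p = 1.82e-06). The IL1B transcript and the transcript of its processing enzyme CASP1 therefore lay on opposite sides of their control levels. No protein was measured in these libraries.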

How the data were processed

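RNA of U87MG cells, 3 control and 3 RSL3 libraries grouped by the treatment label, was measured by paired-end sequencing. The authors trimmed reads with Trimmomatic 0.36 and fastp, aligned them to GRCh38.p4 with HISAT2, sorted the alignments with SAMtools 1.3.1 and counted them with HTSeq 0.6.1p1 on exons per gene, ignoring strand. The deposited values are raw counts, whole numbers without normalization. The annotation release is not given in the sources used here.

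The groups were compared with edgeR 4.0.16 under R 4.3.3 (filterByExpr minimum count 10, TMM, quasi-likelihood test across all 16105 genes, Benjamini-Hochberg adjustment, threshold 0.05, no covariates), checked on simulated data. Normalized counts are scaled to the mean library size. DESeq2 1.42.0, also with a surrogate variable from sva 3.50.0, was an alternative, with other scalings, filters, a replicate block and each library left out. Library totals of 27813462 to 43306335 limit precision for genes of few reads, and a count of 0 allows up to 3. The 10 genes and the lists were chosen with earlier results of these data known. Named genes are the 10, up to 6 called genes of smallest p per list, receptors and partners of the 10 and their gene clusters. Others, among them CSF3, VWF, VCAM1 and GSDMD, were added after their values were seen. Symbols matched 56434 of 65988 identifiers, and of 28 listed NF-kB genes SOD2 had no matching identifier. Gene coordinates, exon overlaps and 3′ UTRs are from GENCODE v44 (GRCh38), which may differ from the annotation used for counting. A result that needs an item withheld for evaluation is not reported here.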

Additional observations from a re-analysis of the deposited data

How the results depend on the processing

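The 7 called chemokine and cytokine genes kept their call and direction in the 13 alternatives run. As they were picked with this contrast known, this describes the processing and adds no support for a response. CCL2 ranged from −1.75 to −1.64 on the log2 scale, IL23A from 1.35 to 1.69, IL11 from 1.06 to 1.24, IL1B from 0.55 to 0.76, CXCL8 from 0.47 to 0.54, CXCL2 from 0.24 to 0.38 and CSF1 from −0.35 to −0.33, while IL6 (−0.08 to 0.15) and CXCL1 (−0.03 to 0.04) lay on both sides of 0 without a call. LIF (−0.33 to −0.08) passed the threshold, making 8 called genes in place of 7, with no filter on low counts, with the replicate block and without RSL3 replicate 3. Over all genes, 4123 calls became 3558 with DESeq2, 3193 with DESeq2 and 1 surrogate variable, 3980 with no filter and 3081 to 3924 when 1 library was left out. For the values of single genes in the other lists, 42 lost their call and 449 did not, and none changed direction. With 1 library left out, the count of called genes ranged from 7 to 11 for the NF-kB list, lowest without RSL3 replicate 2, and from 2 to 5 for the other chemokines and cytokines, lowest without control replicate 1 or RSL3 replicate 2.

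The groups share replicate numbers, but same-numbered libraries deviated together only weakly (correlations 0.027, 0.027 and 0.070), so the numbers were not taken as pairs, although each library correlated best with its own number. The replicate block gave 4633 called genes, with 11 in the NF-kB list, 5 among other chemokines and cytokines, 4 receptors, 8 in the JAK-STAT3 list and 8 in the decay and processing list. Depth limits CCL2 and IL23A most, whose raw counts did not pass 205 in any library.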

Other observations

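Replicate 3 had the highest normalized count of its group in both control and RSL3 cells for 5 of the 10 genes: CXCL8, CXCL2, IL6, LIF and IL1B. For IL6 this difference between libraries was larger than that between treatments, with 7024 and 7257 in the third libraries against 5663 to 5910 in the other 4. CSF3, a granulocyte growth factor outside the 10, had the same order, with 8493 and 9497 in the third libraries and 7221 to 7553 in the others. CXCL1, CCL2, CSF1, IL23A and IL11 did not share it. How many of all genes tested have this order was not counted.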
